A study of Mus musculus with 6 samples.

Results

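The mouse miRNAs that carry the numbers 690 to 721 in their names were examined in exosomes of RAW 264.7 cells, a mouse macrophage line. Every array name of the form miR-N with N between 690 and 721, with any letter or arm suffix, was taken, which gave 35 of the 1881 mouse miRNAs on the array. They were measured on 6 one-colour Agilent arrays, 3 from exosomes of untreated control cells and 3 from exosomes of cells given lipopolysaccharide (LPS), the glycolipid of the Gram-negative outer membrane that macrophages sense through TLR4. LPS was used at 2 µg/mL, and culture supernatant was taken at 72 h, after which exosomes were isolated on size-exclusion columns. The labels give no incubation time for the controls, and they do not say that the 3 samples of a group were separate cultures, so the p-values reflect only how far these samples scatter, and that scatter may be technical.

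A miRNA is a short RNA that guides an Argonaute protein to messenger RNAs, and its seed, the stretch of bases 2 to 8, decides most of the pairing. Numbers in miRNA names follow the order in which sequences entered the registry, so neighbours in number need not be related in sequence or function. The miRNAs in this stretch came from early cloning and sequencing work in mouse, and many are known from rodents alone. Some are known by role: miR-709 was described as a nuclear miRNA that acts on the processing of the miR-15a and miR-16 primary transcript, miR-690 as a cargo of exosomes from alternatively activated macrophages, miR-721 as a circulating product of autoreactive T cells in mouse myocarditis, miR-712 as a product of ribosomal precursor RNA that responds to disturbed flow in endothelium, miR-696 as a regulator of Pgc-1α in muscle, and miR-708 as a product of the Tenm4 gene that is induced by endoplasmic reticulum stress.

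Mature sequences were found in RefSeq, assembly GRCm38.p6, for 29 of the 35, including 11 of the 16 that were detected. None of the 29 shares its seed with another of them, and the members without a sequence, miR-709 among them, could not be compared. The mature sequences of 10 miRNAs that the results below describe are shown 5′ to 3′ with the seed in capitals, to show that their seeds differ.
miR-690: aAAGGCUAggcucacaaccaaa
miR-691: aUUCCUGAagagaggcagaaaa
miR-697: aACAUCCUgguccuguggaga
miR-703: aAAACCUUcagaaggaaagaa
miR-705: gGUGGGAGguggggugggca
miR-706: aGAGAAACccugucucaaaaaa
miR-708-5p: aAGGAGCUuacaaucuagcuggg
miR-710: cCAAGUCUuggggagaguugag
miR-711: gGGACCCGgggagagauguaag
miR-721: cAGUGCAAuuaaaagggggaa

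Of these 29 miRNAs, 28 overlapped the span of another gene, on either strand. miR-703 lies at chr5:98475616-98475636 on the minus strand within Cfap299, miR-706 at chr6:120034290-120034311 on the minus strand within Wnk1, and miR-690 at chr16:28599940-28599961 on the minus strand within Fgf12. miR-691 lies on the minus strand of the same chromosome at chr16:74342005-74342026 within Robo2, miR-697 at chr4:124731768-124731788 on the plus strand within Sf3a3, and miR-721 at chr5:136375777-136375797 on the minus strand within Cux1. miR-711 lies at chr9:108969970-108969991 on the plus strand within Col7a1, and miR-710, at chr8:64514401-64514422 on the minus strand, overlaps no other gene of the table.

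The array reads each miRNA with a ladder of nested probes that start at the base opposite the miRNA's 3′ end and grow by 1 base towards its 5′ end. All 106 probes of the 29 miRNAs with a RefSeq sequence equalled the reverse complement of the 3′ end of that sequence, and the members' probes held 10 to 21 bases. The ladders below belong to miR-709, miR-710 and miR-711, whose readings are set against the probe below. They are the deposited probe sequences, 5′ to 3′, with the base that each step adds in capitals.
miR-709, 11 bases: tcctcctgcct
miR-709, 12 bases: tcctcctgcctC
miR-710, 12 bases: ctcaactctccC
miR-710, 13 bases: ctcaactctcccC
miR-710, 14 bases: ctcaactctccccA
miR-711, 14 bases: cttacatctctccC
miR-711, 15 bases: cttacatctctcccC
miR-711, 16 bases: cttacatctctccccG

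The control and LPS arrays differed as wholes before any miRNA was compared. Control arrays detected 213 to 228 miRNAs and LPS arrays 412 to 446, and the 75th percentile of signal over the 198 miRNAs detected on all arrays was 4.67 times higher on LPS arrays, while the spiked-in RNAs stood at 0.878 of the control level. Each array was therefore divided by that percentile, and values below are named either as unscaled signal or as scaled log2 signal. The control arrays and LPS 1 lay in the first row of the slide and LPS 2 and LPS 3 in the second, and the files give an effective feature size fraction of 0.6 on the control arrays and 0.812 to 0.829 on the LPS arrays, so this property cannot be told apart from the treatment. The LPS label was checked on miR-155-5p, a miRNA induced by LPS, which read 38.2, 39.0 and 37.7 on control and 2895, 3458 and 3422 on LPS arrays. Of the 7 myeloid miRNAs chosen to check the cell type, 7 were detected on at least 1 array, against 0 of 4 erythroid and serum miRNAs, 0 of 5 muscle and mesenchymal, 1 of 5 epithelial and 1 of 3 neural miRNAs. The summed scaled signal of the myeloid list was 11670 to 12010 on control and 29160 to 32180 on LPS arrays, that of the neural list 83.0 to 97.6 and 309 to 312, and that of the epithelial list 7.86 to 18.4 and 26.5 to 30.2. The muscle and mesenchymal list stood at 25.4 to 33.6 and 1.54 to 3.61, and the erythroid and serum list at 47.0 to 66.8 and 21.6 to 25.9. The part of other cell types in the results was not tested.

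More of the 690 to 721 miRNAs were detected on every LPS array than on any control array. The files call a miRNA detected when at least 1 of its probes exceeds 3 times its error, and by that call 6, 7 and 7 members were detected on the control arrays (6.67 ± 0.577, SD, n = 3) and 15, 14 and 13 on the LPS arrays (14 ± 1, SD, n = 3). The groups did not overlap, and a two-sided exact permutation test gave p = 0.1, the smallest value that 3 against 3 arrays allow. Over all miRNAs the number detected was also higher, at 428.0 against 218.7 on average, so the members' ratio of 2.10 stood beside 1.96 for the whole array. In all, 16 of the 35 were detected on at least 1 array (45.7%), against 24.7% of all miRNAs, 29.8% of those with lower numbers, 14.5% of those with higher numbers of 3 digits and 20.6% of those with numbers of 4 digits or more. Of the 20 miRNAs without such a number, let-7 and the like, 50% were detected, a larger share than of the members.

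The members differed in where they were detected. miR-691, miR-709, miR-710, miR-711 and miR-721 were detected on all 6 arrays. A further 6 were detected on all 3 LPS arrays and on no control array, namely miR-697, miR-700-3p, miR-706, miR-708-5p, miR-712-5p and miR-714, and miR-690 and miR-705 on all 3 LPS arrays and 1 control array. miR-696 was detected on 2 LPS arrays only and miR-712-3p on 1. miR-703 alone among the members was detected on all 3 control arrays and on no LPS array, a pattern that 3 of the 1881 miRNAs showed, against 187 with the opposite one. The 19 miRNAs detected on no array were miR-692, miR-693-3p, miR-693-5p, miR-694, miR-695, miR-698-3p, miR-698-5p, miR-700-5p, miR-701-3p, miR-701-5p, miR-702-3p, miR-702-5p, miR-704, miR-707, miR-708-3p, miR-713, miR-717, miR-718 and miR-719.

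The members held a larger share of the detected signal on every LPS array than on any control array, and miR-709 accounted for the difference. Their share of the summed processed signal of detected miRNAs was 0.983%, 0.988% and 0.971% on the control arrays and 4.50%, 3.88% and 3.97% on the LPS arrays. The mean was 0.981% ± 0.00866 on control and 4.11% ± 0.334 on LPS arrays (SD, n = 3 each), a ratio of 4.19, with an exact permutation p of 0.1, the smallest possible. miR-709 alone held 0.334% ± 0.00243 of the signal on control and 3.70% ± 0.315 on LPS arrays, a ratio of 11.1. The other detected members together held 0.647% ± 0.0101 on control and 0.409% ± 0.0198 on LPS arrays, again with exact p = 0.1 and no overlap between groups. A share of signal needs no scaling between arrays, but probes differ in how strongly they respond, so it is no share of molecules. The RNA came from pooled vesicles, so in unscaled signal more vesicles and more miRNA in each vesicle cannot be told apart.

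**Figure D1:**
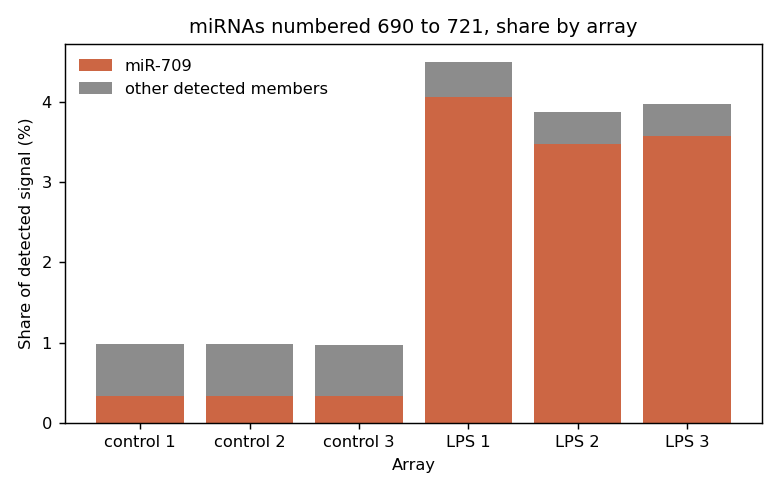
Share of the summed processed signal of detected miRNAs (percent, vertical axis) held by miR-709 and by the other detected members of the 690 to 721 stretch on each of the 6 arrays. The stacked bars reach 0.971 to 0.988% on the control arrays and 3.88 to 4.50% on the LPS arrays, where most of the height is miR-709.

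miR-709 rose in exosomes after LPS. Its 12-base probe read 338, 383 and 371 units of unscaled signal on the control arrays and 24320, 23860 and 24400 on the LPS arrays, a ratio of 66.5 between the means. All 3 LPS arrays stood far above all 3 controls, and no spot of a member was saturated. After scaling, miR-709 was 3.83 higher on the log2 scale (SE 0.07), or 14.2-fold, with an adjusted p of 2.55e-08 (limma, Benjamini-Hochberg over the 412 miRNAs tested). The 11-base probe, tested separately, was 3.32 higher (SE 0.08, limma adjusted p = 7.44e-08), and its unscaled means were 75.7 and 3521. Within the first slide row, where LPS 1 stood beside the 3 controls, the scaled difference was 4.01. Across the 21 alternatives that kept at least 2 arrays in each group it ran from 3.45 to 6.25 and passed the test in each.

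**Figure D2:**
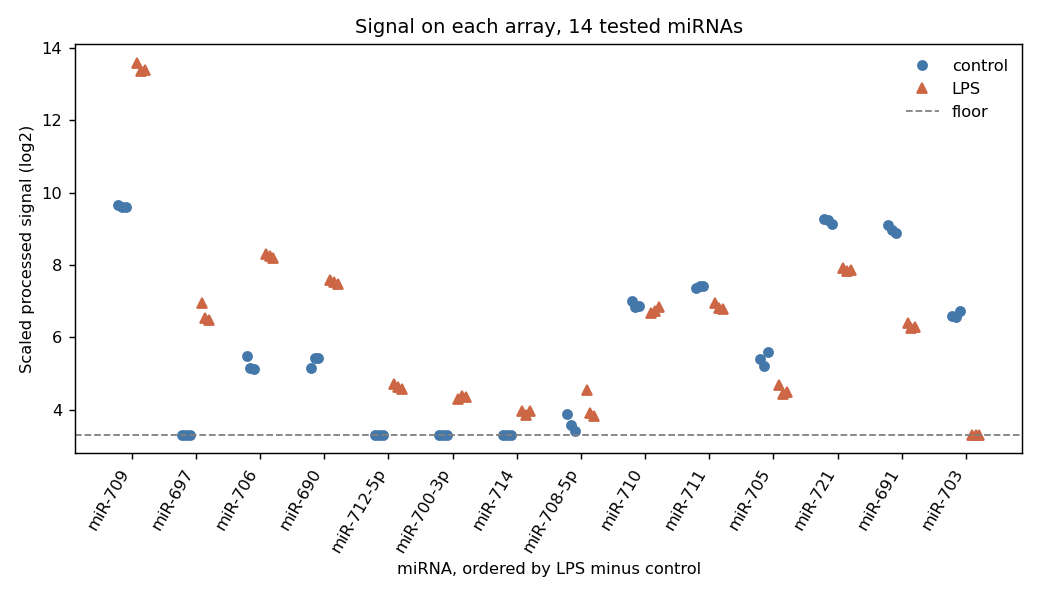
Scaled processed signal (log2, vertical axis) of the 14 tested miRNAs numbered 690 to 721 on each control array (circles) and LPS array (triangles), ordered by the difference, with the floor as a dashed line. miR-709, miR-697, miR-706 and miR-690 stand higher on every LPS array and miR-721, miR-691 and miR-703 lower, and points on the floor have no order.

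miR-706, miR-690 and miR-697 were also higher in exosomes after LPS, and each was well above background on the LPS arrays only. miR-706 read 18.7, 17.6 and 16.6 unscaled on control arrays and 620, 693 and 658 on LPS arrays. miR-690, at 14.8, 21.2 and 20.4 on controls, read 375, 424 and 405 on LPS arrays. For miR-697 the background-subtracted signal was below 0 on every control array (-10.8, -7.79 and -6.10) and stood at 243, 211 and 202 with LPS.

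Because the control readings of these 3 miRNAs were not well above background, their differences are given as bounds, with the dim group set to the higher of its own signal and the lowest signal on that array that was well above background. They entered the test through the LPS group, where they are high, so their p-values add no support to the bounds. On the scaled values miR-706 was at least 4.36-fold higher with LPS, with measured log2 means of 5.25 and 8.25 (difference 3.0, SE 0.10, limma adjusted p = 3.26e-07). miR-690 was at least 2.66-fold higher, with means of 5.33 and 7.53 (difference 2.21, SE 0.09, limma adjusted p = 5.63e-07). For miR-697 the bound was at least 1.45-fold, its control values lying on the floor of 3.31 and its LPS mean at 6.66. Values on the floor have no spread, so no p is given for it. Under the 5 scalings compared, the bounds ran from 3.04 to 23.2 for miR-706, from 1.86 to 14.2 for miR-690 and from 1.01 to 7.72 for miR-697, so miR-697 kept only a bare bound under quantile normalization. With normexp background correction the fitted differences shrank to 0.99 for miR-706, 0.37 for miR-690 and 0.19 for miR-697. The fitted difference of miR-697 fell to 1.13 without LPS 1 and to 1.53 without LPS 3, both of which set the floor anew, and was 1.53 within the first slide row, where miR-706 and miR-690 gave 2.87 and 2.15.

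Read probe by probe on the scaled values, these 3 miRNAs gave bounds of different size. All 4 probes of miR-697 were higher with LPS, by at least 1.07-fold for the 15-base probe and at least 1.45-fold for the 12-base probe. Both probes of miR-690 were higher, the 16-base probe by at least 1.22-fold. In miR-706 only the longest probe, of 19 bases, gave a scaled bound above 1. The 18-base probe, with unscaled means of 7.12 on control and 109 on LPS arrays, was called higher (difference 1.76, SE 0.26, limma adjusted p = 0.000655) but had no scaled bound above 1. This probe entered the test through the LPS group, where it is high, so the call adds no support. In unscaled signal the 18-base probe was at least 3.38-fold higher with LPS. The 17-base and 16-base probes were too dim to be tested.

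miR-703 went the other way and was well above background on the control arrays only. Its 16-base probe read 40.3, 47.2 and 50.3 unscaled on control arrays and 4.17, 11.1 and 8.05 on LPS arrays. No LPS array reached any control array, although the LPS arrays were brighter as wholes. After scaling, miR-703 was at least 6.68-fold lower with LPS, with log2 means of 6.63 on control arrays and 3.31, the floor, on LPS arrays. It entered the test through the control group, where it is high, and its LPS values had no spread, so no p is given. The bound was at least 1.43-fold with no scaling and at least 1.25-fold with scaling to the spiked-in RNAs, and it stayed above 1 under all 5 scalings compared. The fitted difference of -3.32 shrank to -1.25 without LPS 1, to -1.42 without LPS 3 and to -1.17 within the first slide row, with the floor set anew in each. The other 3 probes gave unscaled means of 13.98, 25.6 and 26.4 on control arrays and -2.93, 2.77 and 4.79 on LPS arrays, all lower with LPS, but none was well above background on all arrays of a group, so they were not tested.

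miR-691 was the other member whose unscaled signal was lower on every LPS array. It read 229, 248 and 226 on control arrays and 164, 175 and 177 on LPS arrays, a ratio of 0.734. The groups were apart by more than their spread before scaling, and the scaled difference was -2.67 on the log2 scale (SE 0.07, limma adjusted p = 8.53e-08). Its size followed the scaling, from -2.98 to -0.26 over the 21 alternatives with at least 2 arrays in each group, and it passed the test in each. Only the longest probe was lower in unscaled signal. The 14-base probe read 124 on average on control and 134 on LPS arrays, a ratio of 1.08, and the 13-base probe 12.7 and 29.8.

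miR-721 was brighter on LPS arrays by less than the array as a whole, so its direction depended on the scaling. Its unscaled signal was 259, 301 and 269 on control arrays and 473, 514 and 524 on LPS arrays, 1.82 times higher. Scaled, it was 1.36 lower with LPS (difference -1.36, SE 0.05, limma adjusted p = 5.15e-07), and its 4 probes lay close together, from -1.21 to -1.38. With no scaling the difference was 0.87 and with scaling to the spiked-in RNAs 1.06, both higher with LPS, and with the percentile over all miRNAs it was -0.16 (limma adjusted p = 0.266).

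The seed of miR-721, AGUGCAA, is that of the miR-130 and miR-301 family. On these arrays miR-130b-3p and miR-301a-3p were detected on all 6, and their scaled differences were 0.81 (SE 0.04, limma adjusted p = 2.14e-06) and 1.04 (SE 0.03, limma adjusted p = 2.48e-07), opposite in sign to that of miR-721 under the same scaling. miR-130a-3p, miR-130c, miR-6341 and miR-6389, which share the seed as well, were detected on no array. Among the other members detected on all arrays of a group, the seed of miR-708-5p belongs also to miR-28a-5p, which was detected on all LPS arrays and on no control array (difference 0.18, limma adjusted p = 0.293), and that of miR-705 to miR-6922-5p, miR-6993-5p and miR-7008-5p, all undetected.

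In miR-711 and miR-710 the direction depended on which probe was read. miR-711 is represented by its 16-base probe, the brightest on average, which read 69.1, 84.9 and 81.9 on control arrays and 244, 254 and 248 on LPS arrays, 3.16 times higher. Its 14-base probe, 2 bases shorter in the ladder shown above, read 130, 154 and 153 on control arrays and 19.3, 17.9 and 18.9 on LPS arrays. So before any scaling the longer probe was higher on every LPS array and the shorter one lower on every LPS array. The 14-base probe was lower by at least 4.54-fold unscaled and by at least 21.2-fold after scaling. Its scaled LPS values lay on the floor and had no spread, so no p is given for it. The 15-base probe lay with the shorter one, at 102 on control and 29.5 on LPS arrays. In the scaling to the shared miRNAs the 16-base probe was lower with LPS (difference -0.56, SE 0.06, limma adjusted p = 0.000104), but it was 0.64 higher in the scaling to the percentile over all miRNAs, 1.86 higher in that to the spiked-in RNAs and 1.67 higher with none, and passed the test in each.

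miR-710 showed the same split 1 base lower in its ladder. The 14-base probe that represents it read 54.2, 56.7 and 55.6 on control arrays and 198, 242 and 258 on LPS arrays, a ratio of 4.19. The 13-base probe was brighter with LPS in unscaled signal too, at 192 against 81.0 on average. The 12-base probe read 77.8, 93.5 and 88.7 on control arrays and 11.1, 11.6 and 10.3 on LPS arrays. That was at least 2.70-fold lower unscaled and at least 12.6-fold lower scaled, with no p given because its scaled LPS values lay on the floor. The scaled difference of the 14-base probe was -0.16 (SE 0.07, limma adjusted p = 0.0604) and that of the 13-base probe -0.98 (SE 0.05), so miR-710 was not called by its representing probe. That probe was called higher with no scaling (2.06), with scaling to the spiked-in RNAs (2.25) and with the percentile over all miRNAs (1.03). Without LPS 3 the 13-base probe was the brightest on average and took its place, and the difference was -0.97 (limma adjusted p = 0.000233), and without control 1 it was -0.20 (limma adjusted p = 0.0267). Of the 21 alternatives with at least 2 arrays in each group, 8 called miR-710 lower, these fits among them, and 4 called it higher. Quantile normalization (-0.50, limma adjusted p = 0.00148) and normexp background correction (-0.75) also called it lower.

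**Figure D3:**
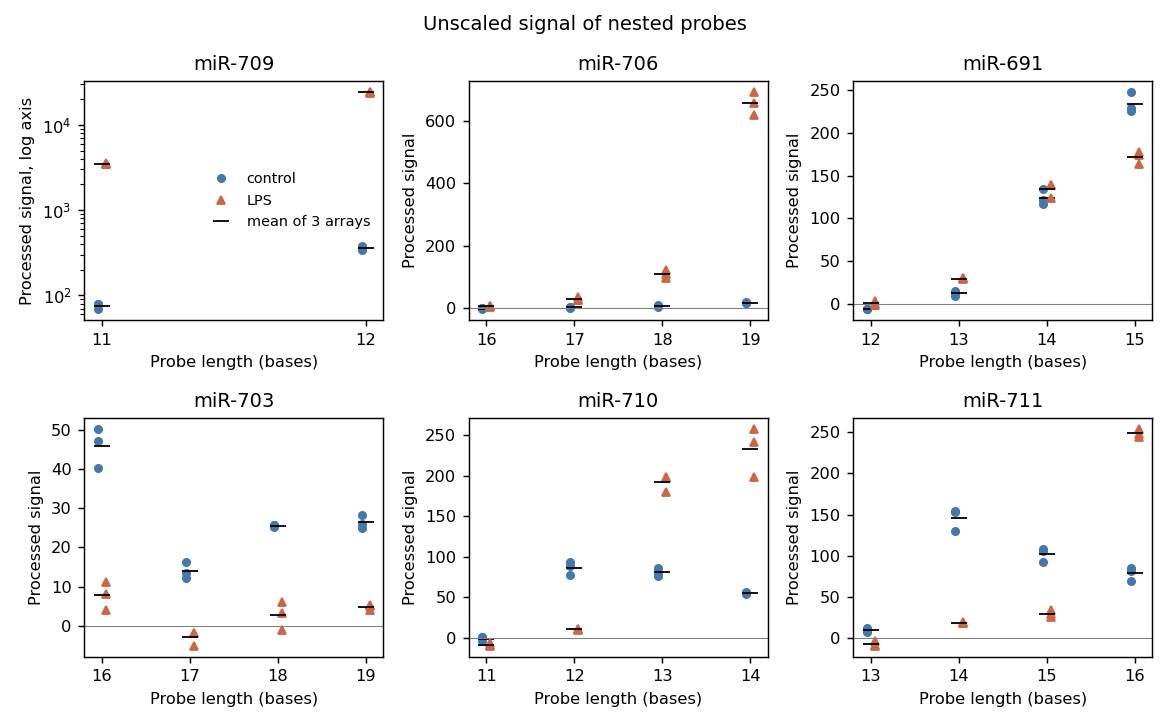
Unscaled processed signal of each nested probe of 6 miRNAs against the probe's length in bases, for control arrays (circles), LPS arrays (triangles) and the mean of 3 arrays (black dashes), with a log axis for miR-709 and linear axes for the others. In miR-710 and miR-711 the shorter of the bright probes reads lower on LPS arrays and the longest reads higher, in miR-709 both probes read higher and in miR-703 all 4 read lower; levels of different probes are not comparable.

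Over all probes of the detected members, 26 were well above background on every array of a group and were tested, of which 12 were called higher and 13 lower at an adjusted p under 0.05. Over all 667 probes tested on the array the shares were 67.6% higher and 25.5% lower. Apart from both probes of miR-709, the member probes called higher passed the filter through the LPS group only, where they are high. Of those called lower, the 16-base miR-703, 12-base miR-710 and 14-base miR-711 probes were well above background on control arrays only. Their scaled LPS values lay on the floor. The counts therefore add no support to the directions given above. None of the 8 members with at least 2 tested probes was called in both directions in the scaling to the shared miRNAs, against 6 of the 270 such miRNAs on the whole array. In that scaling the readings of miR-710 and miR-711 that were opposite in unscaled signal appear as differences of unequal size.

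The remaining detected members were dim, and no direction is read for them. miR-705 read 17.6, 18.3 and 22.9 on control arrays and 50.8, 48.9 and 50.6 on LPS arrays. It was called lower after scaling (difference -0.86, SE 0.12, limma adjusted p = 0.000418), yet it was well above background on the LPS arrays only, and no bound above 1 could be given in that scaling. With no scaling it was at least 1.55-fold higher with LPS, and with scaling to the spiked-in RNAs at least 1.77-fold higher, opposite to the call. Without LPS 1 or LPS 3 its difference was -0.08 or -0.19 and the call was lost, as it was within the first slide row, at -0.05.

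miR-712-5p, from ribosomal precursor RNA, read 51.3, 56.5 and 53.6 on LPS arrays and below 0 on all 3 control arrays. miR-700-3p, from a hairpin within Rcan3, read 38.8, 47.3 and 46.4 with LPS and likewise below 0 without it. miR-714 read 30.5, 33.1 and 34.9 on LPS arrays and 0.0724, 3.16 and -1.51 on control arrays, and it was well above background on no array. These 3 were called higher (differences 1.33, 1.04 and 0.62), but all of their control values lay on the floor, none had a bound above 1 in the scaling to the shared miRNAs, and the call of each was lost without LPS 1 and without LPS 3 and within the first slide row. With no scaling and with scaling to the spiked-in RNAs, miR-712-5p was at least 1.67-fold and 1.90-fold higher and miR-700-3p at least 1.36-fold and 1.56-fold higher.

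miR-708-5p read 6.13, 5.88 and 5.09 on control arrays and 45.8, 34.3 and 32.0 on LPS arrays, of which 1 was well above background. Its scaled difference of 0.48 (SE 0.22) did not pass the test (limma adjusted p = 0.0751). It passed, higher with LPS, in 9 of 19 alternatives, among them quantile normalization (0.85, limma adjusted p = 0.00206) and the slide row as a block (0.92, limma adjusted p = 0.00986), and was -0.70 with normexp. miR-696 read 26.1, 18.3 and 16.2 on LPS arrays and below 0 on control arrays, and miR-712-3p read 19.4, 10.03 and 7.77 against 0.995, 3.05 and 2.67. Neither was detected on all arrays of a group, so they were not tested.

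Counted together, 14 of the 35 members could be tested, of which 7 were called higher with LPS, 5 lower and 2 (miR-708-5p and miR-710) not called. Of the 12 called, 4 (miR-700-3p, miR-705, miR-712-5p and miR-714) have no direction that can be read in the scaling to the shared miRNAs. Of the 14 tested, 9 were detected on all arrays of 1 group only, 8 of them LPS and 1 control, and these entered the test through the group where they are high. Over all 412 tested miRNAs 65.5% were called higher and 26.7% lower. The median difference was 0.55 for the tested members and 0.85 for all tested miRNAs. With no scaling these medians were 1.42 and 2.03, with quantile normalization 0.77 and 0.73, and with the gene totals of the files 3.17 and 1.39, so which was larger depended on the processing. Tested miRNAs with lower numbers had a median of 1.1 (150 called higher and 27 lower of 188), those with higher numbers of 3 digits one of 0.47 (4 and 3 of 8) and those with 4 digits or more one of 0.29 (100 and 74 of 192). Those without such a number had one of 1.69 (9 and 1 of 10). The scaled groups did not overlap in 13 of the 14 tested members. Those 13 include miR-697, miR-700-3p, miR-703, miR-712-5p and miR-714, whose values in 1 group all lay on the floor. They also include miR-710, whose nearest control and LPS arrays read 6.838 and 6.836. The same count was not made over all 412 tested miRNAs, so the 13 are not read as a trait of the members.

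The counts moved with the scaling. In unscaled signal 12 of the 14 were higher on every LPS array and 2, miR-691 and miR-703, lower, against 364 and 40 of all 412. With no scaling and with scaling to the spiked-in RNAs the calls were 12 higher and 2 lower in both cases. Of all 412 tested, 364 were called higher and 39 lower with no scaling, and 370 and 38 with scaling to the spiked-in RNAs. Without LPS 1 or without LPS 3 the members called higher numbered 4 in place of 7. Over all miRNAs tested in these fits, 416 and 424, those called higher numbered 187 in each, in place of 270 of 412. Under every alternative that kept at least 2 arrays in each group and in which they could be tested, miR-709, miR-706, miR-690 and miR-697 were called higher and miR-703 and miR-691 lower. Apart from the fit with no filter, miR-706, miR-690, miR-697 and miR-703 were tested through the group where they are high. Their repeated calls therefore add no support to the bounds given above.

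**Figure D4:**
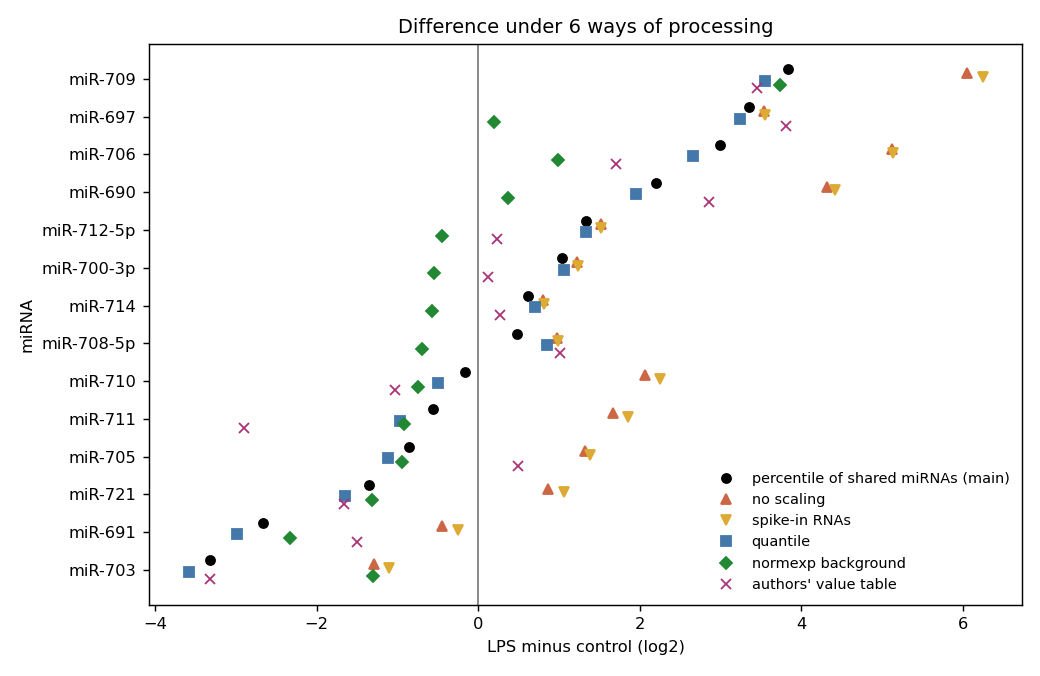
LPS minus control (log2, horizontal axis) of the 14 tested miRNAs under 6 ways of processing, 1 symbol for each. The symbols of miR-709, miR-697, miR-706 and miR-690 lie to the right of 0 and those of miR-691 and miR-703 to the left, while those of miR-710, miR-711, miR-705, miR-721, miR-712-5p, miR-700-3p, miR-714 and miR-708-5p lie on both sides.

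Among the 6 members that kept their direction, the share of pyrimidines (C and T) in the representing probe did not separate those that were higher from those that were lower. It was 57.9% for miR-706, 58.3% for miR-697, 60% for miR-690 and 91.7% for miR-709, which were higher, and 75% for miR-703 and 93.3% for miR-691, which were lower. Over all tested miRNAs the medians were 57.1% for those called higher and 71.8% for those called lower. The letters TCTC, searched on the probe strand only, stood in the representing probes of 4 of the 14 tested members, or 28.6% (miR-691, miR-697, miR-710 and miR-711), of which 1 was called higher and 2 lower. They stood in those of 67 of all 412, or 16.3%, of which 27 were called higher and 37 lower.

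A 12-base stretch can occur at many places in the genome, and the probes of miR-709, miR-703 and miR-706 had the most matches near gene starts of the 35 members. The first 12 bases of each miRNA's probes were searched on both strands of 32851 RefSeq promoter windows of 300 bases (GRCm38.p6). The full 12-base probe of miR-709, tcctcctgcctC, was found in 32 windows (0.0974%), the first 12 bases of miR-703, ttctttccttct, in 18 (0.0548%) and those of miR-706, ttttttgagaca, in 17 (0.0517%). The median over the 1865 array miRNAs with a probe of at least 12 bases was 2 windows (0.00609%), 14 of them exceeded miR-709 and 38 exceeded miR-706. These matches are a description of the letters and were not tested against the signal.

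The summed signal per miRNA in the scanner files could not be used for several members. On every array the total given for miR-710 equalled its own probe totals plus the whole total of miR-709, the entry numbered just below it. On LPS 1, for example, 8067 was given for miR-710, of which 50.7 came from its own probes and 8016 from miR-709, and miR-711 was given 8107, of which 40.2 was its own and the rest the total given for miR-710. Read from these totals, miR-710 and miR-711 were 3.77 and 3.40 higher with LPS, against -0.16 and -0.56 from their own probes. Additions from another miRNA were also found on at least 1 array for miR-691, miR-696, miR-700-3p, miR-705, miR-706, miR-712-3p, miR-712-5p and miR-714. miR-690, miR-697, miR-703, miR-708-5p, miR-709 and miR-721 carried none on any array where they were detected.

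The authors' deposited table of log2 values was among the alternatives by which the 6 members above were said to keep their direction. That it gave them the same direction is therefore no separate support. In the authors' deposited table miR-709 stood at 9.01, 9.01 and 9.05 on control and 12.6, 12.4 and 12.4 on LPS arrays, and miR-703 at 6.20, 6.27 and 5.85 against 2.75, 2.82 and 2.77. miR-711 was 2.90 lower with LPS in the authors' deposited table (7.41, 7.51 and 7.50 against 4.70, 4.47 and 4.56), a larger fall than its representing probe gave. miR-705 was 0.50 higher there, opposite to its scaled difference.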

How the data were processed

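Exosomal RNA of 3 control and 3 LPS samples was hybridised to 1-colour Agilent miRNA arrays. Per the labels' protocols, RNA was labelled with Cy3 by a low-input amplification kit for cRNA. Scanner intensity was deposited for each array, background-subtracted within the array by Agilent Feature Extraction 10.7.1.1 per the file headers (the submitters' processing notes name 9.1). The authors also deposited a table of log2 values, whose columns have medians between 2.73 and 2.74. Its normalization the sources used here do not give. The values followed the log2 processed signal of detected miRNAs with slopes of 0.978 to 1.06 and r of 0.900 to 0.971 across miRNAs, which are not independent replicates.

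Spots of a probe were averaged on processed signal, without control and outlier spots, and the probe with the highest mean over the arrays stood for its miRNA. Arrays were divided by their 75th percentile of the 198 miRNAs found on all 6, floored at 3.31 (log2) and log2-transformed. miRNAs detected on 3 of 3 arrays of a group (412) were tested with limma 3.58.1 in R 4.3.3 (lmFit, eBayes, Benjamini-Hochberg, threshold 0.05). The fit was tested on simulated data. For single values per array the exact permutation test was used, two-sided. The number of arrays limits the precision. Probes were tested one by one, and LPS 1 was set against the controls within its slide row, as additions made after the data were seen.

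The members, marker lists, number classes and alternatives were chosen with earlier results of these data known. The rule for naming was every member, with values for those detected on at least 1 array, the miRNAs that share a seed with them, and miR-155-5p. The main fit did not pair the samples by the replicate numbers in their titles, and the replicate block was an alternative. The deviations of same-numbered arrays from their group means correlated at -0.401, -0.221 and -0.279, which cannot show whether the samples were paired. Per-sample columns left unused numbered 0.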

Additional observations from a re-analysis of the deposited data

How the results depend on the processing

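Over the alternatives with at least 2 arrays in each group, miR-709 and miR-691 kept direction and call in 21 of 21, and miR-690, miR-697, miR-703 and miR-706 in 20 of 20. For miR-690, miR-697, miR-703 and miR-706 the repeated calls add no support, since the filter passed them through the group where they are high. Differences (log2) changed sign as follows, and apart from the totals that include another miRNA the cause was not tested. With the 75th percentile over all miRNAs, miR-705 was 0.33, miR-710 1.03 and miR-711 0.64. Of all 412 tested miRNAs 337 were called higher and 59 lower, and of the members 11 higher and 2 lower. With no scaling, miR-705 was 1.32, miR-710 2.06, miR-711 1.67 and miR-721 0.87. Of all tested miRNAs 364 were higher and 39 lower, and of the members 12 higher and 2 lower. With spike-in scaling miR-705 was 1.39, miR-710 2.25, miR-711 1.86 and miR-721 1.06. Of all tested miRNAs 370 were higher and 38 lower, and of the members 12 higher and 2 lower. With normexp (offset 50), miR-700-3p was -0.54, miR-708-5p -0.70, miR-712-5p -0.45 and miR-714 -0.58, with 113 of all higher and 284 lower and 4 members higher and 10 lower. With the gene totals, miR-710 was 3.77 and miR-711 3.40, and 3 members were lower, as were 92 of all tested miRNAs. In the authors' table miR-705 was 0.50.

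With no filter 269 of all 1881 miRNAs were lower, and 6 of the 35 members. Over miRNAs detected on all arrays 115 were higher, 1 of them a member. With well above background as the detection call 172 of 357 tested were higher, 4 of them among the 12 members tested. Within slide row 1 the lone LPS array is assumed to vary like the controls, so no count is given. Leaving out 1 array gave 187 to 269 of all higher and 85 to 119 lower, and 4 to 7 members higher and 4 to 6 lower. With the replicate block, the counts were 270 higher and 110 lower over all miRNAs, and of the members' calls the block changed that of miR-708-5p (difference 0.48, limma adjusted p = 0.00529), giving 8 members higher. A member near background has only a bound, so depth of signal limits miR-700-3p, miR-705, miR-708-5p, miR-712-5p and miR-714.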
